A study of Homo sapiens with 9 samples.

Results

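HK1, PGM1, PMM1 and SLC35D3 are 4 genes of sugar phosphate and nucleotide sugar supply, the step before glycosylation. They were taken by name, as every probe set whose RefSeq identifier maps to 1 of the 4 symbols. Each had 1 probe set, so they make up 4 of the 1259 probe sets and 4 of the 927 named genes in the table. The names were proposed because all 4 differed between interferon-treated and untreated T84 cells. Their values in that comparison are therefore given as a description, with no test beyond list counts that include them.

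The samples were T84 cells given 100 U/ml interferon gamma for 24 hours (3 arrays), untreated T84 cells at passage 68 and 90% confluent (3 arrays), and untreated Caco-2 cells at passage 37 and 90% confluent (3 arrays). T84 and Caco-2 are human colon carcinoma lines, interferon gamma is a cytokine of activated T and natural killer cells, and no line is described as genetically altered. The series asked which glycosylation genes go with a sialylated CD44 epitope that rises in treated T84 cells and is missing from Caco-2. Each line stands for 1 tumour, the passage of the treated cells is not given in the sources used here, and the replicates are numbered without a statement that they were separate cultures. The p-values therefore measure only the spread between these arrays, which may be technical.

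Cells make sugar donors for the Golgi from a few hexose phosphates. Hexokinase traps glucose as its phosphate, phosphoglucomutase turns that into the form that UDP-glucose and UDP-galactose are built from, and phosphomannomutase makes the form of mannose phosphate that becomes GDP-mannose and GDP-fucose. Carriers of the SLC35 family then move finished nucleotide sugars from the cytosol into the Golgi or the endoplasmic reticulum. In mucus-secreting gut epithelium this supply feeds the heavily glycosylated mucins and surface proteins.

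Values are log2 signals per probe set, on which 1 unit is a doubling, and they were used as deposited. The table holds no background probe sets or detection calls, so whether a dim signal lies above background cannot be read from it. No probe sequences were used here, so which of the several HK1 transcripts its single probe set reads is not known. The suffix of all 4 probe sets is the plain one, without a mark for shared or cross-hybridising targets. In these cultures, fewer cells with a transcript and less of it per cell cannot be told apart.

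Starts of the genes are shown because HK1 was higher in interferon-treated cells while the other members were lower. RefSeq (GRCh38.p14) windows of 250 bases before to 50 after each start were searched on both strands for GAAA, any 2 bases and GAAA again, a motif of interferon-stimulated genes. The 4 symbols had 12 such windows, 7 for HK1, 3 for PGM1 and 1 each for PMM1 and SLC35D3. Of the 12, 0 held the motif, against 3.57% of 35116 windows of the same length. These letters are thus not in the 12 windows, from which nothing follows about the factors that bind there. Which start the probe sets of HK1 and PGM1 read is not known, so the windows of the members with a single start are printed, without capitals since neither holds a match.
PMM1, chr22:41589791-41590090, - strand: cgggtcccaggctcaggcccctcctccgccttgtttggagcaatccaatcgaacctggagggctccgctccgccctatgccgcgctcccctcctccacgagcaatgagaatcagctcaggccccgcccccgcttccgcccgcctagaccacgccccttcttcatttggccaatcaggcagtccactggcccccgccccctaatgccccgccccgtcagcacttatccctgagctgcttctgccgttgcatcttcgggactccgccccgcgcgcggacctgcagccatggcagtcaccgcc
SLC35D3, chr6:136922051-136922350, + strand: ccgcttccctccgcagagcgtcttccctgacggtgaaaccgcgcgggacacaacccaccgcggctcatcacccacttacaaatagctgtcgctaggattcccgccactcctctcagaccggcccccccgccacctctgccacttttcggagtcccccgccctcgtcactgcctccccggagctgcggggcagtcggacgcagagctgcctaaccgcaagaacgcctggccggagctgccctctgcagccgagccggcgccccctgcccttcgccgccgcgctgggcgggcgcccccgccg
The G and C content was 67.7% in the PMM1 window and 71.3% in the SLC35D3 window, and the 7 HK1 windows ran from 46.7% to 74.3%.

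CXCL9, a chemokine gene induced by interferon gamma, was at 11.39 to 12.36 log2 units on the treated T84 arrays, against 5.66 to 5.91 on the untreated T84 arrays, and CXCL10 and CXCL11 were also higher in treated cells by 5.11 and 4.04 log2 units (limma adjusted p up to 5.4e-05, n = 3 per group). Of the 6 genes listed to check the label 5 rose, CD74 and ICAM1 being the others, and IFITM1 did not pass (0.13 ± 0.10, limma adjusted p = 0.615). Of 13 epithelial markers, the 3 on the array (LGALS4, MUC1 and MUC13) were lower in Caco-2 than in either T84 group, and LGALS4 was at 6.82 to 6.96 in Caco-2. These 3 also differed within T84 (limma adjusted p up to 0.0104, n = 3 per group), with treated minus untreated differences of -0.53 log2 units for LGALS4, 1.26 for MUC1 and 0.40 for MUC13. Leukocyte markers (5 of 16 measured) summed to 28.59 to 28.93 log2 units for treated T84, 28.44 to 28.77 for untreated T84 and 27.76 to 28.91 for Caco-2. The 7 measured of 15 fibroblast and endothelial markers summed to 35.45 to 35.82 log2 units for treated T84, 35.49 to 35.67 for untreated T84 and 37.47 to 38.79 for Caco-2. In mean T84 against Caco-2, 4 of the 7 (LUM, BGN, PDGFRB and PECAM1) passed the test as lower, beside 26.3% of all probe sets. LUM was dim, with a Caco-2 mean of 4.32 and an SD of 0.42. The part of these marker differences in the results below was not tested. Caco-2 replicate 1 stood farthest from its group, with a root mean square deviation of 0.274 log2 units against 0.0573 to 0.177 on the other 8 arrays. The differences of the 4 members from Caco-2 are therefore also given without it, which is not done for most other genes.

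HK1 encodes hexokinase 1, the widespread form of the enzyme that commits glucose to metabolism. Its signal was 9.88, 9.96 and 9.99 log2 units on the treated T84 arrays, 8.85, 8.80 and 8.84 on the untreated T84 arrays, and 10.11, 9.75 and 9.70 on the Caco-2 arrays. Treated T84 was higher than untreated T84 on every array, with a gap wider than the spread within either group, and the treated values lay inside the range of Caco-2. The group means were 9.94 ± 0.06 for treated T84, 8.83 ± 0.03 for untreated T84 and 9.85 ± 0.22 for Caco-2 (SD, n = 3 each). The treated minus untreated difference of 1.12 log2 units, or 2.17-fold, was the nineteenth highest of all probe sets.

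PGM1 encodes phosphoglucomutase 1, which links glucose phosphate to UDP-sugar synthesis and to glycogen. Inherited loss of it is a congenital disorder of glycosylation. Its signal was 9.52, 9.54 and 9.57 log2 units on the treated T84 arrays, 10.17, 10.19 and 10.16 on the untreated T84 arrays, and 10.70, 10.41 and 10.38 on the Caco-2 arrays. The 3 groups did not overlap, with treated T84 lowest, untreated T84 between and Caco-2 highest. Replicates of T84 were tight, with SDs of 0.0221 in treated and 0.0151 in untreated cells. The treated minus untreated difference was -0.63 log2 units, which is 1.55-fold lower.

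PMM1 encodes phosphomannomutase 1, a mutase of mannose phosphate whose relative PMM2 is the one lost in the commonest congenital disorder of glycosylation. Its signal was 8.85, 8.77 and 8.88 log2 units on the treated T84 arrays, 9.18, 9.35 and 9.29 on the untreated T84 arrays, and 9.70, 9.35 and 9.21 on the Caco-2 arrays. Treated T84 was lowest and met neither other group, while untreated T84 lay within the range of Caco-2 apart from replicate 1. The treated minus untreated difference was -0.44 log2 units (1.36-fold lower). It was the smallest of the 4. Among supply genes that were not proposed, GNPDA1 at 0.47 lay just above it in size, and SLC35A1 at 0.41, GFUS at 0.34 and GALK1 at -0.34 just below, all with treated and untreated values that did not overlap.

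SLC35D3 encodes a member of the nucleotide sugar carrier family whose substrate is not established. In mice its loss impairs the dense granules of platelets. Its signal was 6.35, 6.29 and 6.09 log2 units on the treated T84 arrays, 7.23, 7.46 and 7.39 on the untreated T84 arrays, and 5.34, 5.25 and 5.14 on the Caco-2 arrays. The groups again did not overlap, but in another order, with untreated T84 highest, treated T84 between and Caco-2 lowest. The treated minus untreated difference was -1.12 log2 units, or 2.17-fold lower, the third lowest of 1259 probe sets. Treated and untreated T84 thus did not overlap for any of the 4 members, 1 higher and 3 lower, beside 27.5% of all probe sets without overlap. Over all probe sets 10.2% passed a limma adjusted p of 0.05 in this comparison (4.37% higher, 5.8% lower). Nothing is read from the members' counts, since this comparison led to the choice.

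**Figure D1:**
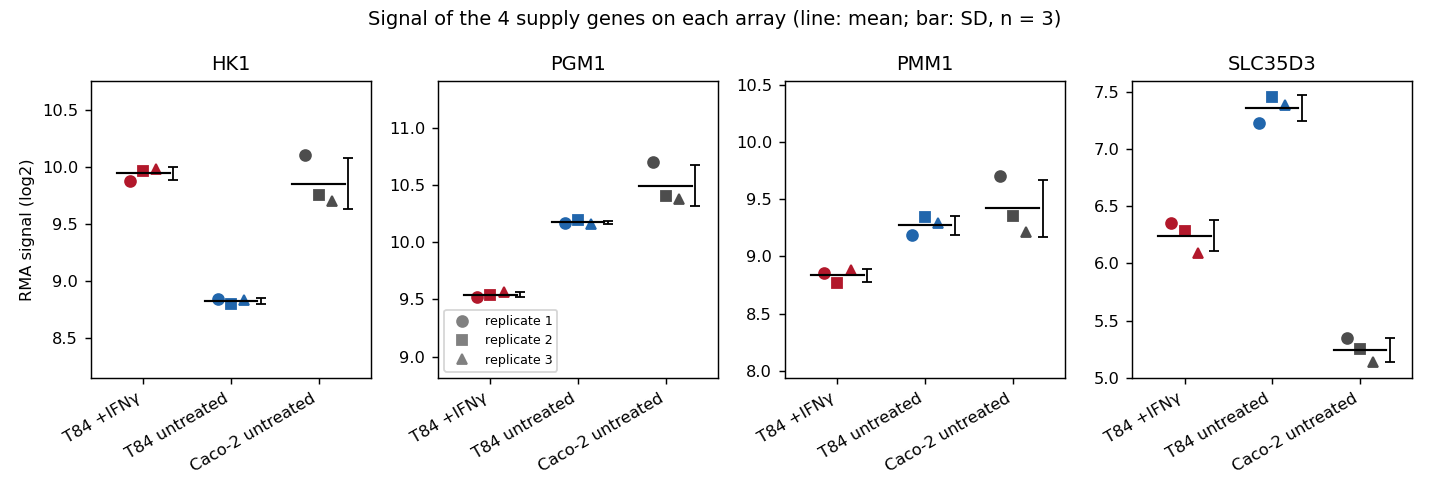
RMA signal in log2 units (vertical axes, each spanning the same number of units) of HK1, PGM1, PMM1 and SLC35D3 on each of the 9 arrays, by group. Points are arrays, lines group means and bars SDs (n = 3). Treated T84 sits with Caco-2 for HK1, lowest for PGM1 and PMM1, and between the other groups for SLC35D3.

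The comparison between the lines was not used to choose the genes. The estimate for the mean of both T84 groups minus Caco-2 does not use the treated minus untreated difference, and this comparison was the main test. Its error is not separate from the choice, since the same residual spread over the 9 arrays enters both comparisons. Genes chosen for differing within T84 may have been favoured for a small error, which would also help them pass here. The single comparisons of treated and untreated T84 with Caco-2 share T84 arrays with the choice and share the Caco-2 arrays with each other. All tests are limma's moderated test on the 9 arrays together, adjusted by Benjamini-Hochberg over 1259 probe sets, with 3 arrays per group.

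All 4 genes passed in the comparison of mean T84 with Caco-2, beside 48.8% of all probe sets. That count is not independent of the choice, because of the shared error. HK1, PGM1 and PMM1 were lower in T84, beside 26.3% of all, and SLC35D3 was higher, beside 22.5%. The T84 and Caco-2 arrays did not overlap for PGM1 and SLC35D3, beside 43.0% of all probe sets. SLC35D3 differed most, at 1.56 ± 0.08 log2 units (SE), or 2.94-fold higher (95% confidence interval 2.6 to 3.33; limma adjusted p = 5.74e-07). PGM1 was 1.56-fold lower (1.39 to 1.74), at -0.64 ± 0.07 log2 units (limma adjusted p = 8.18e-05). HK1 was 1.38-fold lower (1.21 to 1.59), at -0.47 ± 0.09 log2 units (limma adjusted p = 0.00182). This HK1 value averages a treated group near Caco-2 and an untreated group well below it, so neither T84 group is at that level. PMM1 was 1.29-fold lower (1.10 to 1.51), at -0.37 ± 0.10 log2 units (limma adjusted p = 0.0143). Without Caco-2 replicate 1 the differences were 1.61 for SLC35D3, -0.53 for PGM1, -0.34 for HK1 and -0.23 for PMM1, all still past the test (limma adjusted p up to 0.0153). Centring the arrays on ribosomal protein genes, which moves the median of all probe sets from 0.02 to 0.26 log2 units and the calls from 283 higher and 331 lower to 797 and 239, ended the PMM1 call (-0.13, limma adjusted p = 0.223). Under that centring HK1 was at -0.24, PGM1 at -0.41 and SLC35D3 at 1.79, all past the test.

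Treated T84 alone differed from Caco-2 at 3 of the 4 genes, beside 45.6% of all probe sets, with 2 lower (26.2% of all), 1 higher (19.4% of all) and no overlap at these 3 (53.5% of all). PGM1 was at -0.95 ± 0.08 log2 units (1.94-fold lower, 1.70 to 2.21; limma adjusted p = 1.83e-05) and PMM1 at -0.59 ± 0.11 (1.5-fold lower, 1.25 to 1.80; limma adjusted p = 0.00279). SLC35D3 was 2.00-fold higher (1.73 to 2.30; limma adjusted p = 2.51e-05). HK1 did not pass, at 0.09 ± 0.10 log2 units with a 95% confidence interval of -0.14 to 0.32 (limma adjusted p = 0.507), so a difference of up to 1.25-fold in favour of treated T84 lies inside the interval. That outcome rests on Caco-2 replicate 1. Without it HK1 was higher in treated T84 by 0.22 log2 units and passed (limma adjusted p = 0.00651). Without the same array PGM1 was at -0.85, PMM1 at -0.45 and SLC35D3 at 1.05. With ribosomal centring HK1 was at 0.36 and PMM1 at -0.32, both past the test, while quantile normalization gave -0.03.

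Untreated T84 alone also differed from Caco-2 at 3 of the 4 genes, with HK1 in place of PMM1, beside 43.7% of all probe sets. Of the 3, 2 were lower (24.2% of all), 1 was higher (19.5% of all), and none overlapped (49.6% of all). HK1 was at -1.03 ± 0.10 log2 units (2.04-fold lower, 1.74 to 2.39; limma adjusted p = 4.52e-05). SLC35D3 was 4.33-fold higher (3.75 to 5.0; limma adjusted p = 2.72e-07). PGM1 was 1.25-fold lower (1.10 to 1.42), at -0.32 ± 0.08 log2 units (limma adjusted p = 0.0115), a call that ribosomal centring ended (-0.13, limma adjusted p = 0.18). PMM1 did not pass, at -0.15 ± 0.11 with an interval of -0.41 to 0.12 (limma adjusted p = 0.354), and the sign turned (0.05) with ribosomal centring. Without Caco-2 replicate 1 these differences were -0.90 for HK1, 2.16 for SLC35D3, -0.22 for PGM1 and -0.01 for PMM1. The orders of the 3 groups therefore differ by gene. Neighbours that did not differ beyond their error were treated T84 and Caco-2 for HK1, and untreated T84 and Caco-2 for PMM1.

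**Figure D2:**
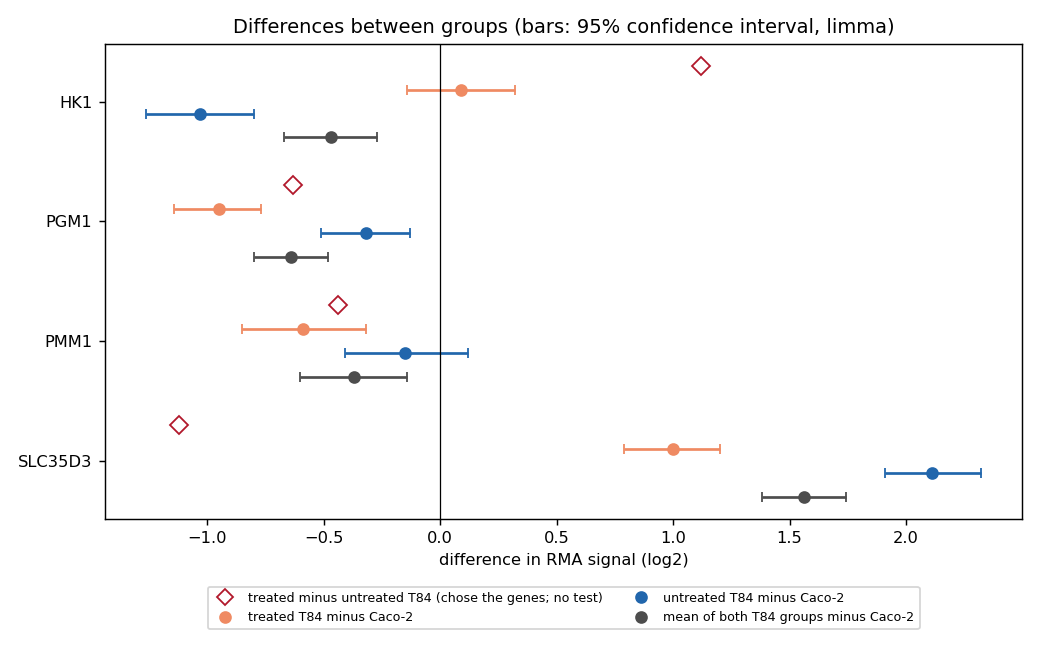
Differences in RMA signal (log2 units, horizontal axis) for each gene in 4 comparisons, positive where the first-named group is higher. Bars are 95% confidence intervals from limma, and open diamonds mark the treated minus untreated difference that chose the genes, drawn without error. HK1 in treated T84 against Caco-2 and PMM1 in untreated T84 against Caco-2 are the intervals that include 0.

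The 3 enzymes stood farthest above their group means on the same array, Caco-2 replicate 1. On treated T84 replicate 3 all 3 were also above, but by 0.02 to 0.05 log2 units. Caco-2 replicate 1 was above the mean of replicates 2 and 3 by 0.38 log2 units for HK1, 0.31 for PGM1 and 0.42 for PMM1, while replicates 2 and 3 lay within 0.05, 0.03 and 0.14 of each other. For SLC35D3 that step was 0.15 against a difference of 0.11 between replicates 2 and 3. Over all probe sets this array was the highest of the 3 at 59.7% and more than 0.25 above the other Caco-2 arrays at 19.4%. Correlations of the deviations from group means over the 9 arrays, a description without a test since the arrays share their processing, were 0.968 between HK1 and PGM1, 0.842 between HK1 and PMM1 and 0.926 between PGM1 and PMM1. With SLC35D3 they were 0.243, 0.385 and 0.55 for the same enzymes in that order. The Caco-2 deviations, up to 0.28 log2 units, weigh most in these correlations, which were not computed without Caco-2 replicate 1. On the T84 arrays deviations were smaller and signs mixed. HK1 and PMM1 were at -0.06 and 0.02 on treated T84 replicate 1, and at 0.04 and 0.05 on replicate 3. Over the signals themselves, which the group differences dominate, PGM1 and PMM1 correlated at 0.955, HK1 with PGM1 at -0.201 and HK1 with SLC35D3 at -0.816.

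**Figure D3:**
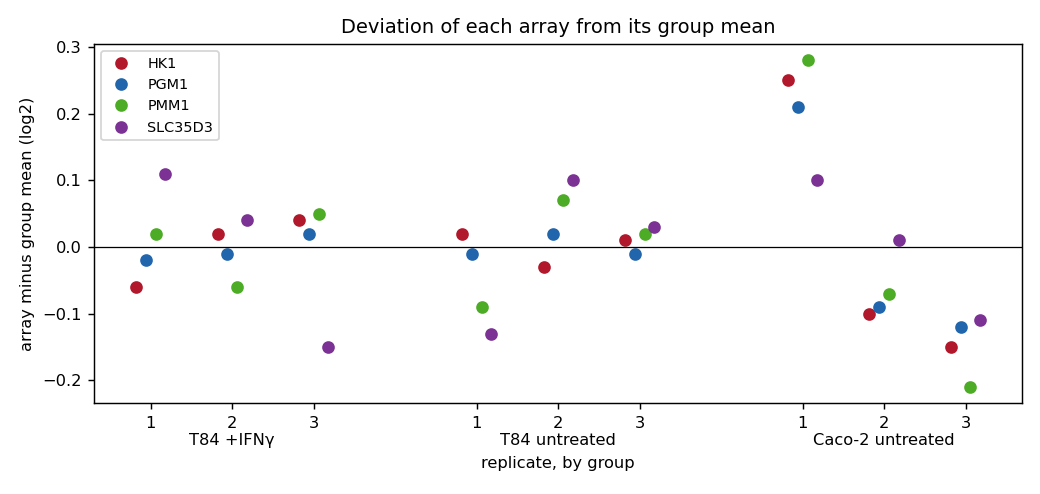
Deviation of each array from the mean of its group (log2 units, vertical axis) for the 4 genes, by group and replicate. HK1, PGM1 and PMM1 are 0.21 to 0.28 above the mean on Caco-2 replicate 1, and the T84 arrays stay within 0.15 of their means for all 4 genes.

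The genes most like each member over the 9 arrays are given by Pearson correlation, as a description over the 3 groups of 3. HK1 was most like ST6GALNAC2, an O-glycan sialyltransferase gene (0.98), GNPDA1 (0.95) and IFITM2 (0.908), whose probe set can cross-hybridise. PGM1 was most like the frizzled receptor gene FZD2 (0.983), the lysosomal fucosidase gene FUCA1 (0.977) and SULT1A2 (0.974), and PMM1 most like IHH (0.97), the lysosomal mannosidase gene MAN2B1 (0.961) and INHBB (0.961). SLC35D3 was most like GNE, whose enzyme starts sialic acid synthesis (0.988), GAL3ST4 (0.979) and PLA2R1 (0.979). For the deviations from group means the nearest genes were others, with XYLT2, EIF3C and MAN2B1 for HK1 (0.975 to 0.981) and CD248, WNT5B and GFUS for PGM1 (0.983 to 0.989). For PMM1 they were PIGQ, USP22 and B4GALT3 (0.97 to 0.992), and for SLC35D3 LARGE2, ALG2 and COG7 (0.929 to 0.94). The probe set of EIF3C can cross-hybridise.

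Around the 4 members, 41 other genes of the 5 supply lists were measured, of 61 listed. Of these 41, 1 rose with interferon gamma, none fell, and 40 did not pass. That share is set low by taking out the 4 genes chosen for differing here. With them 5 of the 45 (11.1%) were past the threshold, the 4 members among them, beside 10.2% of all probe sets. Members and lists were chosen with earlier results known, so nothing is read from either share. The median treated minus untreated difference was -0.01 over the 45 and -0.01 over all probe sets. At an unadjusted p under 0.05 the count among the 41 was 2 higher and 2 lower. The gene that rose was GNPDA1, which encodes an enzyme that turns glucosamine phosphate back into fructose phosphate. It was at 10.29, 10.30 and 10.36 log2 units on the treated T84 arrays, 9.71, 9.86 and 9.97 on the untreated T84 arrays, and 10.45, 10.35 and 10.24 on the Caco-2 arrays. Treated T84 was above untreated T84 on every array, by 0.47 ± 0.08 log2 units or 1.38-fold (1.22 to 1.57; limma adjusted p = 0.0065, and up to 0.032 over the alternatives). As with HK1, its treated values met those of Caco-2.

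The closest partners of the members gave no call with interferon gamma. In hexose phosphate supply, GPI, which interconverts glucose and fructose phosphates, was at 0.07 ± 0.11 log2 units, and MPI, which makes mannose phosphate from fructose phosphate, at -0.01 ± 0.11. PMM2 was at 0.13 ± 0.09, and HK2, PGM2 and PGM3 were not analysed here. The carrier genes SLC35D1 and SLC35D2 were at -0.07 ± 0.13 and -0.11 ± 0.06. Over the whole SLC35 family 1 of 20 measured genes (5.0%), the chosen SLC35D3, was past the threshold, beside 10.2% of all probe sets. No gene passed among 7 of UDP-glucose, UDP-galactose and UDP-glucuronate supply or among 5 of GDP-mannose and GDP-fucose supply. The Caco-2 arrays enter only the error of this comparison, and without Caco-2 replicate 1 the test called 3 of the 41 higher and 2 lower, beside 70 higher and 108 lower of all 1259 probe sets.

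Between the lines the other supply genes were called about as often as all probe sets. The test of mean T84 against Caco-2 called 21 of the 41 (51.2%, beside 48.8%), of which 10 were higher and 11 lower in T84, with a median of -0.02 against 0.02 over all probe sets. With ribosomal centring the counts were 17 and 9. PMM2 was 1.31-fold higher in T84 (limma adjusted p = 0.00276), at 10.05, 9.83 and 9.79 log2 units for treated T84, 9.70, 9.88 and 9.70 for untreated T84 and 9.51, 9.47 and 9.34 for Caco-2, opposite in sign to PMM1. GMDS and GFUS, which turn GDP-mannose into GDP-fucose, were 2.18-fold and 1.60-fold higher, and GMPPB, which makes GDP-mannose, 1.82-fold higher. GMPPA, which encodes the regulatory partner of GMPPB, was 1.45-fold lower. The galactose pathway genes GALK1 and GALT were 1.82-fold and 1.80-fold lower. GFPT1, the gene for the first enzyme of the hexosamine pathway, was 1.93-fold higher, while its relative GFPT2 was 1.34-fold lower. For these 8 genes the limma adjusted p was at most 0.00142. In hexosamine supply NAGK, the gene of a GlcNAc kinase, was 1.3-fold lower, GNPDA1 1.2-fold lower and UAP1, which makes UDP-GlcNAc, 1.12-fold higher (limma adjusted p up to 0.0327). The UAP1 call was lost under 9 of 20 alternatives, among them leaving out treated T84 replicate 1, untreated T84 replicate 1 or 2, or Caco-2 replicate 1 or 3 (0.13 to 0.17). Ribosomal centring ended the GNPDA1 call (-0.03) and put PMM2 at 0.62, UAP1 at 0.40, GFPT2 at -0.19, NAGK at -0.15 and GMPPA at -0.30.

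Among the carriers, SLC35D3 was the largest of 5 higher genes, and 5 others were lower. SLC35B4, a carrier gene for UDP-xylose and UDP-GlcNAc, was 3.89-fold lower in T84, at 5.19, 5.27 and 5.15 log2 units for treated T84, 5.12, 5.33 and 5.13 for untreated T84 and 7.29, 7.15 and 7.04 for Caco-2 (limma adjusted p = 7.43e-08). SLC35D2, the relative of SLC35D3 that carries UDP-GlcNAc, was 2.03-fold lower (limma adjusted p = 9.37e-07), with 9.34 to 9.39 log2 units for treated T84, 9.42 to 9.53 for untreated T84 and 10.32 to 10.52 for Caco-2. SLC35D1 did not pass (-0.31 ± 0.11, limma adjusted p = 0.0524). The SLC35D genes thus gave 1 higher, 1 lower and 1 that did not pass. SLC35A1, the carrier gene for CMP-sialic acid, was 2.30-fold higher, SLC35E4 1.75-fold higher and the orphan gene SLC35E3 2.26-fold lower (limma adjusted p of at most 0.000937). The size for SLC35A1 is uncertain, since its Caco-2 arrays spread widely, at 8.79, 9.73 and 9.59 log2 units. Its difference of 1.2 log2 units ran from 0.91 to 1.38 over single arrays left out. Smaller differences were found for SLC35E1 (1.32-fold higher), SLC35B1 (1.42-fold lower), SLC35A2 (1.34-fold higher) and SLC35A4 (1.21-fold lower). The SLC35A2 call was lost without Caco-2 replicate 2 (0.37) or 3 (0.30). Its value is from the brightest of 4 probe sets, and the others were at 0.40, 0.25 and 0.21. Of these the one at 0.25 did not pass (limma adjusted p = 0.12). The SLC35A4 call was lost under 10 of 20 alternatives, with the value nearest 0 (-0.04) under ribosomal centring. Among them were leaving out treated T84 replicate 2 or 3, untreated T84 replicate 1 or 2, or Caco-2 replicate 1 or 2 (-0.29 to -0.16). Ribosomal centring put SLC35A2 at 0.65, SLC35E1 at 0.63 and SLC35B1 at -0.27.

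**Figure D4:**
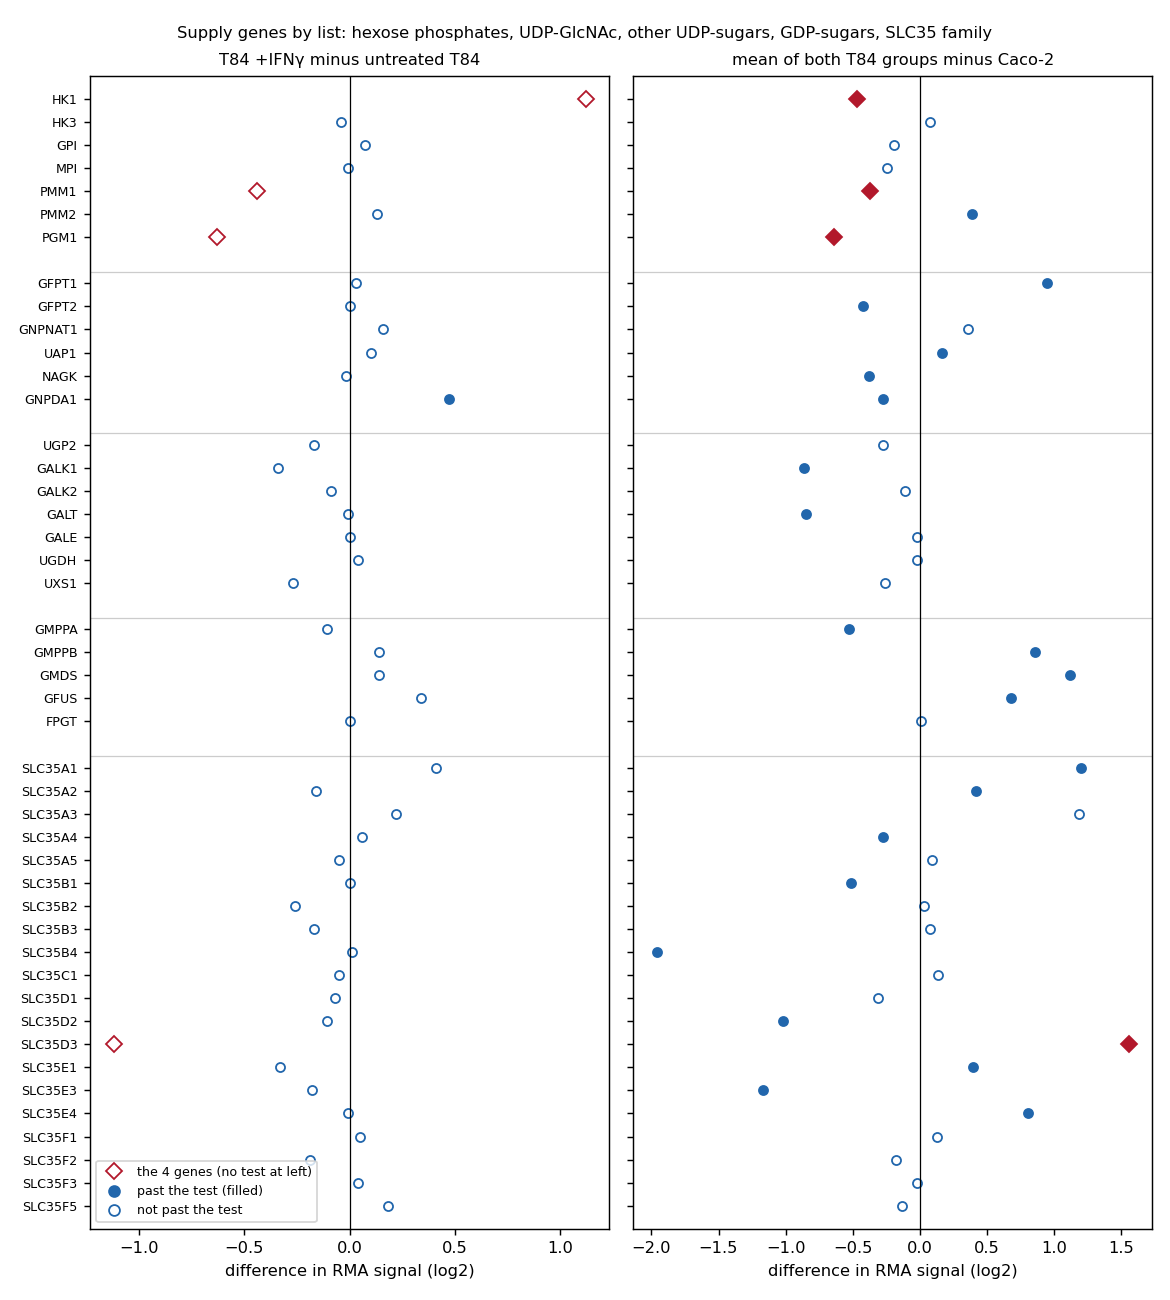
Differences in RMA signal (log2 units, horizontal axes) of the 45 measured supply genes, grouped by list, for treated minus untreated T84 (left) and mean T84 minus Caco-2 (right). Diamonds are HK1, PGM1, PMM1 and SLC35D3, untested at left, circles the other 41 genes, and filled symbols passed the test. GNPDA1 is the one filled circle at left, and 21 circles are filled at right.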

How the data were processed

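RNA from both lines was measured on 9 single-colour arrays. The deposited values are log2 signals per probe set, made by the authors with RMA, per the submitters' processing notes. For the RMA version, the array's genome build and any filter, the sources used here give nothing. The arrays form 3 groups of 3 by their titles.

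Of 1259 probe sets, 1043 were given 1 symbol by matching RefSeq identifiers without version, and 216 stayed unnamed in the fits. Where a listed gene had several probe sets, the one with the highest mean stood for it. With limma 3.58.1 (R 4.3.3), 1 model of the 3 groups covered the 9 arrays (6 residual and 2.12 prior degrees of freedom). P-values were adjusted over 1259 probe sets by Benjamini-Hochberg, at a threshold of 0.05. The fit was tested on simulated data. Tables and figures used pandas 2.3.3 and matplotlib 3.10.9 in Python 3.11.15.

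The members and gene lists were chosen with earlier results of these data known. Named were the members, their direct partners, the interferon-induced chemokine genes, supply genes past the test in treated against untreated or mean T84 against Caco-2, and the 3 genes most like each member. Alternatives were other scalings (median, ribosomal protein gene, quantile), array weights, no or robust moderation, a threshold of 0.01, a replicate block and arrays left out in turn. The number of arrays limits the precision. Results of 1 motif search are not reported here.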

Additional observations from a re-analysis of the deposited data

How the results depend on the processing

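SLC35D3 kept its direction and its calls against Caco-2 under every alternative run, as did PGM1 and PMM1 in treated T84, HK1 in untreated T84, and HK1 and PGM1 in the mean of both T84 groups, though ribosomal protein gene centring moved 3 of these differences by over 1.5 times (HK1 in mean T84 to -0.24, PGM1 in mean T84 to -0.41, PMM1 in treated T84 to -0.32). With that centring the treated minus untreated differences were 1.19 for HK1, -0.56 for PGM1 and -0.36 for PMM1. Against Caco-2 it gave 0.36 for HK1 in treated T84, now past the test, -0.13 for PGM1 and 0.05 for PMM1 in untreated T84, and -0.13 for PMM1 in mean T84, none of these 3 past it. It also gave 795, 675 and 797 probe sets higher in treated, untreated and mean T84 than in Caco-2 (against 244, 245 and 283), 17 other supply genes higher in mean T84, and 2 higher with interferon gamma. Quantile normalization turned HK1 in treated T84 to -0.03 and put PGM1 at -0.69 with interferon gamma, where median centring gave -0.65. HK1 in treated T84 passed with array weights (0.20) and without 3 arrays that deviated together (0.19), a choice made after seeing the data, and ran from 0.01 to 0.22 over single arrays left out. A threshold of 0.01 ended the calls of PGM1 in untreated T84 (-0.32) and PMM1 in mean T84 (-0.37) and left 36 of the 73 probe sets lower with interferon gamma. That number was 48 without moderation, 144 with array weights and 40 to 108 over single arrays left out (40 without treated T84 replicate 2, 48 without treated T84 replicate 3, 44 without untreated T84 replicate 3). Array weights also gave 87 higher with interferon gamma (against 55), 368 higher in treated T84 relative to Caco-2 and 18 other supply genes lower in mean T84 (against 11). Other supply genes higher and lower with interferon gamma (1 and 0) numbered 2 and 1 with only the 6 arrays compared, 2 and 3 with array weights, 3 and 1 without the 3 arrays, and 1 to 3 and 0 to 2 over single arrays left out, the most without Caco-2 replicate 1. Causes were not tested.

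Whether replicate numbers pair the samples is not settled. Deviations of same-numbered treated and untreated T84 arrays correlated at 0.386, -0.024 and 0.561, and those of differently numbered ones at -0.512 to 0.397. With the replicate number as a block, HK1 in mean T84 was again at -0.47 (limma adjusted p = 0.00593) and 59 probe sets were lower with interferon gamma, and no call of the 4 genes against Caco-2 changed. Each member has 1 probe set, so another probe set could not be tried. With no background probe sets, what signal over background limits cannot be given.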
